A study of Caenorhabditis elegans with 8 samples.

Results

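The vitellogenin genes vit-1, vit-2, vit-3, vit-4, vit-5 and vit-6 encode the yolk proteins of Caenorhabditis elegans. They were taken by WormBase symbol from a table of 46748 genes, all 6 were found, and all 6 were among the 14272 genes tested. The study sequenced RNA from whole nematodes of the wild-type strain N2 after feeding RNAi, in which worms eat bacteria that make double-stranded RNA against a gene. There were 3 libraries from worms fed an hlh-2 RNAi plasmid, 3 from worms fed a lin-32 RNAi plasmid and 2 from worms fed the empty plasmid L4440. HLH-2 and LIN-32 are basic helix-loop-helix transcription factors, and the series asks how impairing either changes expression across the genome. No source used here gives the stage of the worms.

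In the adult hermaphrodite, vitellogenins are made in the intestine, loaded with lipid, secreted into the body cavity and taken up by growing oocytes through the receptor RME-2. They feed the embryo and the newly hatched larva. Transcription in the intestine depends on the GATA factor ELT-2 and on the homeodomain proteins UNC-62 and CEH-60, and in males the factor MAB-3 keeps these genes off. The vit-1 and vit-2 genes are related copies, as are vit-3, vit-4 and vit-5, and their products are the large yolk polypeptides. The VIT-6 precursor is cut into a pair of smaller ones.

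The hlh-2 transcript did not follow the label of its group. The hlh-2 transcript stood at 50.6 ± 2.87 CPM (counts scaled to library size) in hlh-2 RNAi libraries and 22.1 ± 6.16 CPM in lin-32 RNAi libraries (SD, n = 3 each), against 49.8 ± 1.16 CPM in L4440 (SD, n = 2). The lin-32 transcript stood at 2.62 ± 0.694 CPM with hlh-2 RNAi and 0.806 ± 0.154 CPM with lin-32 RNAi (SD, n = 3 each), against 1.46 ± 0.0570 CPM in L4440 (SD, n = 2). Against L4440 the hlh-2 transcript stood at 0.025 ± 0.147 in hlh-2 RNAi and -1.16 ± 0.153 in lin-32 RNAi (log2, SE, edgeR adjusted p = 0.990 and 0.0041). The lin-32 transcript stood at 0.85 ± 0.246 and -0.86 ± 0.288 in the same groups (log2, SE, edgeR adjusted p = 0.456 and 0.233). The group names used here are therefore the labels, and every direction is one between the libraries labelled so.

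Of the members, 5 lie on chromosome X and 1 on chromosome IV, all annotated as protein coding in WBcel235. The vit-1 gene (WBGene00006925) spans X 7727889 to 7733168 on the plus strand, and vit-2 (WBGene00006926) spans X 5101042 to 5106169 on the plus strand. The vit-4 gene (WBGene00006928, X 3558769 to 3563965) and vit-3 (WBGene00006927, X 3567355 to 3572549) lie on the minus strand, 3389 bases apart with 0 annotated genes between them. The vit-5 gene (WBGene00006929) spans X 3403471 to 3408603 and vit-6 (WBGene00006930) spans IV 8261157 to 8266459, both on the plus strand. All are long genes of few introns. Coding lengths are 4809 bases in each of vit-3, vit-4 and vit-5, 4839 in vit-2, 4848 in vit-1 and 4953 in vit-6, without the stop codon. There are 5 introns in vit-3, vit-4 and vit-5 and 4 in vit-1, vit-2 and vit-6. On the opposite strand vit-2 overlaps C42D8.9 by 11 bases, and vit-3 and vit-4 overlap the noncoding RNA genes T27A10.8 and F59D8.3 by 171 and 150 bases. The library kit named in the labels does not mark strand, so reads in these stretches cannot be assigned to a strand. Reads that fit several of the related copies may have been dropped or divided when counted, so the values of single copies, above all of vit-3, vit-4 and vit-5, are uncertain, and their sums are given too.

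The 6 genes together took a share of all counts that was lower in every library of both RNAi groups than in either L4440 library. That share was 6.32%, 6.23% and 6.30% in hlh-2 RNAi and 6.27%, 6.04% and 6.44% in lin-32 RNAi, against 6.58% and 6.52% in L4440. The means were 6.28% ± 0.0482 for hlh-2 RNAi and 6.25% ± 0.198 for lin-32 RNAi (SD, n = 3 each), and 6.55% ± 0.0441 for L4440 (SD, n = 2). The nearest RNAi library to L4440 was lin-32 RNAi replicate 3. Its summed level was 65089 CPM, against 65642 CPM in L4440 replicate 2. The share was not tested. By CPM of single genes, 12.2% of all tested genes were lower without overlap in hlh-2 RNAi and 15.4% in lin-32 RNAi against L4440. Without lin-32 RNAi replicate 2, the lowest library, the lin-32 RNAi mean was 6.35%. A share also depends on the counts of all other genes. In RNA from whole animals, cell number, RNA per cell and stage cannot be told apart.

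**Figure D1:**
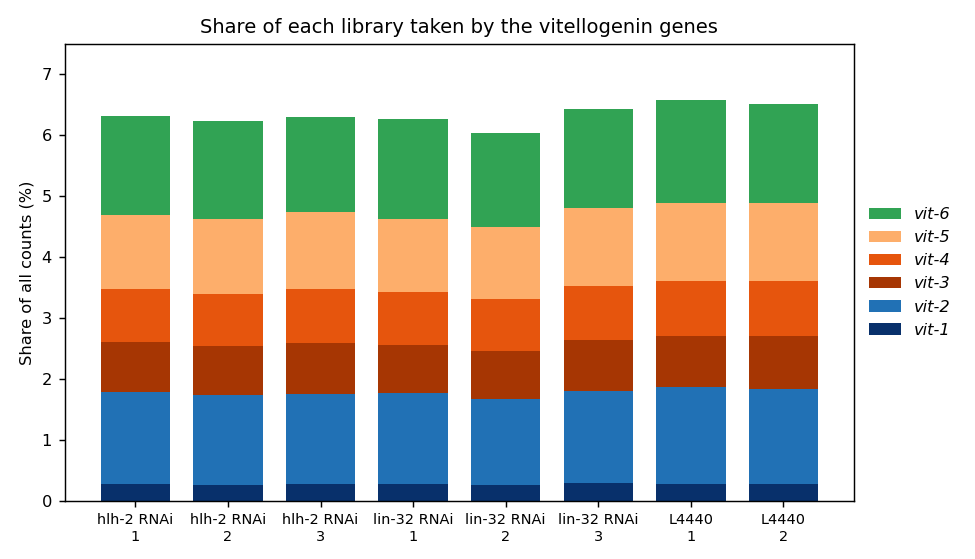
Share of all counts (%, vertical axis from 0) taken by each vitellogenin gene in each of the 8 libraries, stacked by gene. Total heights run from 6.04% in lin-32 RNAi replicate 2 to 6.58% in L4440 replicate 1, and the bands keep nearly the same proportions in every library.

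The composition of the vitellogenin counts was close to constant. The vit-6 gene supplied 25.3% ± 0.616 of them in hlh-2 RNAi, 25.7% ± 0.448 in lin-32 RNAi and 25.4% ± 0.384 in L4440 (SD, n = 3, 3 and 2). The vit-2 gene supplied 23.8% ± 0.112, 23.6% ± 0.0949 and 24.1% ± 0.0464 in the same groups. All 6 RNAi libraries lay between 23.5% and 23.9% and both L4440 libraries lay at 24.1%. The smallest part came from vit-1, which lay between 4.14% and 4.48% in every library.

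Per length, the members ran in a fixed order of levels, with vit-6 and vit-2 at the top and vit-1 far below the rest. Over the 8 libraries the level per length was 3189 ± 123.3 CPM per kilobase of exon for vit-6, 3056 ± 132 for vit-2 and 2556 ± 103.7 for vit-5 (SD, n = 8). It was 1783 ± 61.9 for vit-4, 1669 ± 67.2 for vit-3 and 535 ± 26.9 for vit-1. The order held in 8 of 8 libraries for each pair of neighbours. The means of vit-6 and vit-2, and those of vit-4 and vit-3, differed by less than the sum of their SDs over libraries, but the ratio within a library stayed between 1.01 and 1.08 for vit-6 over vit-2 and between 1.06 and 1.08 for vit-4 over vit-3. The ratio of vit-3 over vit-1 was 3.12, with a range of 2.95 to 3.24. Reads dropped or divided between related copies could shift these levels alike in every library. A steady ratio therefore cannot show the order of true levels among the copies. Among 46449 genes with an exon length, mean level per length ranked 9 for vit-6, 12 for vit-2, 29 for vit-5, 78 for vit-4, 85 for vit-3 and 216 for vit-1.

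In hlh-2 RNAi against L4440, every member's libraries lay below both controls, by small amounts that did not pass the test. The log2 fold changes of the 6 ran from -0.11 to -0.057 with a median of -0.083, where the median of all tested genes was -6.8e-04. Of the members 0 of 6 passed with edgeR, DESeq2 or limma-voom, and 1 had an unadjusted p under 0.05 with edgeR. Over all genes 29 passed with edgeR (0.203%), and 6.78% had an unadjusted p under 0.05. The libraries of both groups did not overlap in 6 of 6 members, all lower in hlh-2 RNAi, where 12.2% of all tested genes showed that. The 6 are not independent of each other, as they share a tissue and copies may share reads.

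The vit-2 transcript lay furthest from the control. It had 14824, 14691 and 14917 CPM in hlh-2 RNAi, against 16117 and 15796 CPM in L4440. The hlh-2 RNAi libraries were close together and all below both controls. The log2 fold change was -0.11 ± 0.047 SE (adjusted p = 0.717 with edgeR), a difference of -7.18% with a 95% interval of -13.6% to -0.306%. The vit-6 transcript, from the only member outside chromosome X, had 16002, 15822 and 15532 CPM in hlh-2 RNAi, against 17142 and 16490 CPM in L4440. Its log2 fold change was -0.091 ± 0.050 SE (adjusted p = 0.783 with edgeR).

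For the copies, vit-3 had 8009, 7893 and 8369 CPM in hlh-2 RNAi, against 8532 and 8637 CPM in L4440. The vit-4 transcript had 8583, 8552 and 8872 CPM in hlh-2 RNAi, against 9125 and 9209 CPM in L4440. In both, replicate 3 of hlh-2 RNAi came nearest to the controls. The vit-5 transcript had 11983, 12267 and 12686 CPM in hlh-2 RNAi, against 13073 and 12750 CPM in L4440. Here too replicate 3 was the nearest to the controls and still below both. Summed over these 3 copies, the level was 29071 ± 744 CPM in hlh-2 RNAi (SD, n = 3), against 30663 ± 95.6 CPM in L4440 (SD, n = 2), and all 3 hlh-2 RNAi libraries were below both controls. The vit-1 transcript had 2704, 2609 and 2708 CPM in hlh-2 RNAi, against 2802 and 2760 CPM in L4440, and its log2 fold change was -0.057 ± 0.060 SE (adjusted p = 0.916 with edgeR). Summed over vit-1 and vit-2, the level was 17484 ± 166 CPM in hlh-2 RNAi (SD, n = 3), against 18738 ± 256 CPM in L4440 (SD, n = 2). For the 6 members the lower bounds of the 95% intervals lay between -13.6% and -11.8% and the upper bounds between -0.306% and 5.23%. Decreases of a few percent and, for 5 of 6, no decrease are both inside these intervals.

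**Figure D2:**
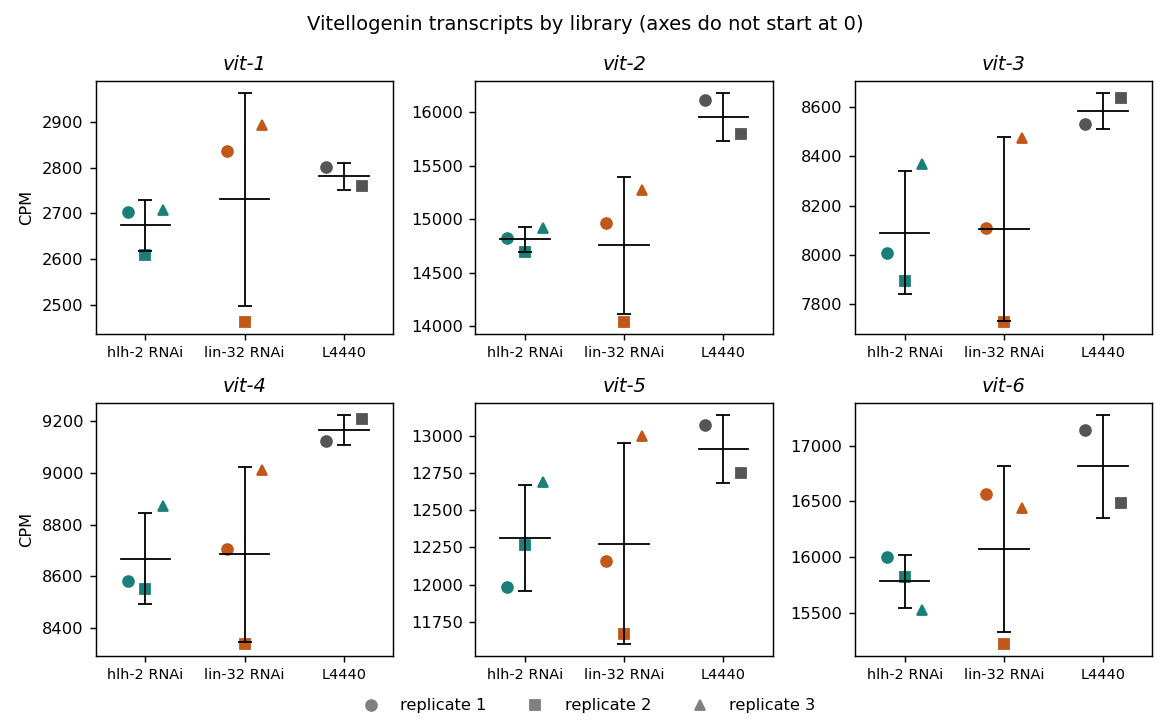
CPM (vertical axes, not starting at 0) of each vitellogenin transcript in each library, by group, with marker shape for the replicate number and bars for mean ± SD (n = 3, 3 and 2). All 3 hlh-2 RNAi points lie below both L4440 points in every panel, while lin-32 RNAi points spread wider, with replicate 2 lowest.

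In lin-32 RNAi against L4440, the members again lay at or below the controls on average, with a wider spread, and none passed. The log2 fold changes ran from -0.11 to -0.027 with a median of -0.075, where the median of all tested genes was 0.0015. Of the members 0 of 6 passed with edgeR, DESeq2 or limma-voom, and 1 had an unadjusted p under 0.05 with edgeR. Over all genes 106 passed with edgeR (0.743%), and 12.6% had an unadjusted p under 0.05. The groups did not overlap in vit-2, vit-3 and vit-4, all lower in lin-32 RNAi, where 15.4% of all tested genes showed that. This comparison uses the same 2 L4440 libraries as the one before, so the like direction in both is not a second observation.

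The vit-2 transcript had 14965, 14038 and 15267 CPM in lin-32 RNAi, against 16117 and 15796 CPM in L4440. All 3 lay below both controls, and the log2 fold change was -0.11 ± 0.047 SE (adjusted p = 0.352 with edgeR), a difference of -7.52% with a 95% interval of -13.9% to -0.669%. The vit-3 transcript had 8109, 7727 and 8476 CPM in lin-32 RNAi, against 8532 and 8637 CPM in L4440. The vit-4 transcript had 8708, 8338 and 9013 CPM in lin-32 RNAi, against 9125 and 9209 CPM in L4440. For both of these neighbouring genes replicate 3 was just under the lower control. Their log2 fold changes were -0.083 ± 0.049 for vit-3 and -0.078 ± 0.046 for vit-4 (SE, edgeR adjusted p = 0.532 each).

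In the other 3 members at least 1 lin-32 RNAi library was above a control. The vit-5 transcript had 12157, 11665 and 12998 CPM in lin-32 RNAi, against 13073 and 12750 CPM in L4440. The vit-6 transcript had 16562, 15221 and 16442 CPM in lin-32 RNAi, against 17142 and 16490 CPM in L4440. The vit-1 transcript had 2837, 2462 and 2893 CPM in lin-32 RNAi, against 2802 and 2760 CPM in L4440. Here 2 of 3 libraries exceeded both controls and the other was the lowest of all 8, and vit-1 stood at -0.027 ± 0.060 SE on the log2 scale (adjusted p = 0.903 with edgeR). Without lin-32 RNAi replicate 2 the vit-1 value was 0.043 (log2) and the median of the 6 was -0.043. For the members the lower bounds of the 95% intervals lay between -13.9% and -10.3% and the upper bounds between -0.669% and 7.48%. Summed over vit-3, vit-4 and vit-5, the level was 29063 ± 1381 CPM in lin-32 RNAi (SD, n = 3), against 30663 ± 95.6 CPM in L4440 (SD, n = 2). Summed over vit-1 and vit-2, it was 17487 ± 874 CPM, against 18738 ± 256 CPM. In both sums every lin-32 RNAi library was below both controls, as were 15.4% of single tested genes. The sums were not tested.

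**Figure D3:**
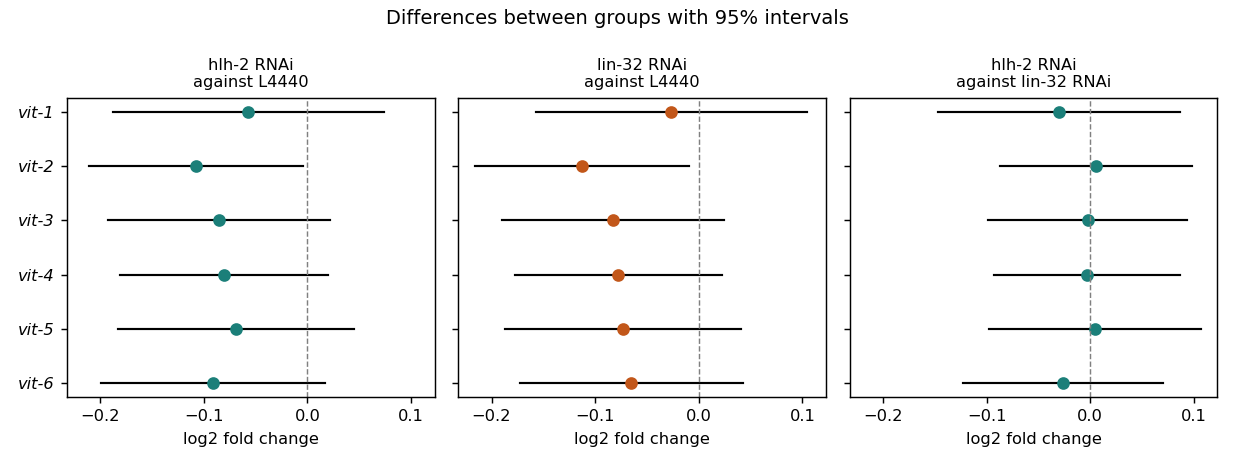
Log2 fold change (horizontal axis) of each vitellogenin gene in the 3 comparisons, with points for the edgeR estimate and lines for its unadjusted 95% interval. In both comparisons with L4440 the intervals of the other 5 genes include 0 and that of vit-2 ends just below it, and between the RNAi groups all 6 include 0.

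Between the RNAi groups the members differed least. For hlh-2 RNAi against lin-32 RNAi the log2 fold changes ran from -0.030 for vit-1 to 0.0052 for vit-2, with a median of -0.0027. None passed: 0 of 6 with edgeR, DESeq2 or limma-voom, and 0 at an unadjusted p under 0.05 with edgeR, where 58 of all tested genes passed with edgeR (0.406%) and 7.97% had an unadjusted p under 0.05. With the replicate numbers as a block, 132 genes and 0 members passed. The groups overlapped in 6 of 6 members, where 13.7% of all tested genes had groups that did not overlap. All 95% intervals lay between -9.71% and 7.67%. Differences of that size in either direction are inside the intervals. The mean summed level of the 6 was 62340 ± 657 CPM in hlh-2 RNAi, against 62626 ± 2885 CPM in lin-32 RNAi (SD, n = 3 each), so the lin-32 RNAi libraries were the more spread.

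In 1 library the members lay low together. In lin-32 RNAi replicate 2 all 6 had their lowest CPM of the 8 libraries, with deviations from each gene's mean of -9.54% for vit-1 to -5.25% for vit-4. Deviations in lin-32 RNAi replicate 3 were 1.26% to 6.27% above the mean. In hlh-2 RNAi replicate 3 the members parted, as vit-5 stood 1.91% above and vit-6 3.84% below its mean. Both L4440 libraries had all 6 above the mean, by 1.42% to 6.90%. Each value rests on 61790 to 538810 counts, which gives a counting error of 0.136% to 0.402%. Of the gene lists taken up below, those of yolk uptake, vitellogenin regulators, oocyte and sperm also had their lowest summed CPM in lin-32 RNAi replicate 2. The intestine, adult cuticle, body wall muscle and neuron lists did not. The share of all tested genes that were lowest in that library was not counted. Whether 1 library differs from the rest beyond replicate variation was not tested. The coefficient of variation of the members was 0.766% to 3.07% in hlh-2 RNAi, 3.90% to 8.57% in lin-32 RNAi and 0.643% to 2.74% in L4440. The median over the 126 tested genes at 1000 CPM or more was 3.02%, 3.42% and 2.63% in these groups. The largest value, 8.57% in lin-32 RNAi, belonged to vit-1.

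**Figure D4:**
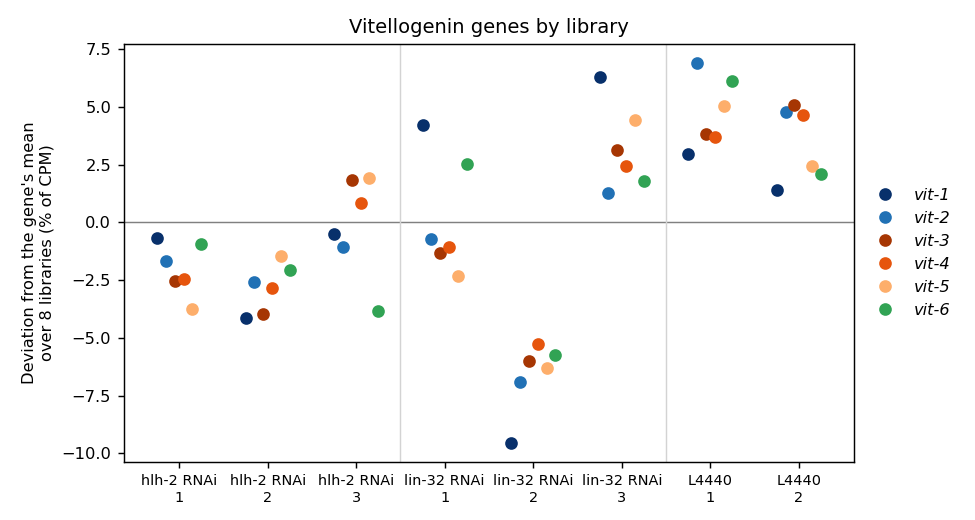
Deviation of each vitellogenin gene from its own mean CPM over the 8 libraries (%, vertical axis), by library in group order, coloured by gene. All 6 points lie below 0 in lin-32 RNAi replicate 2, down to -9.54%, and above 0 in both L4440 libraries.

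By the correlation of log2 CPM over the 8 libraries with the mean of the 6 members, the most similar of 7197 other genes at 10 CPM or more were F27C1.6 (r = 0.954), glh-2 (0.949), C14C11.2 (0.945), cpg-1 (0.941) and cdc-42 (0.933). The glh-2 gene encodes a germline helicase, cpg-1 an eggshell proteoglycan and cdc-42 a small GTPase. These values describe genes chosen for their likeness in libraries that share groups and scaling. For cpg-1 the levels were 1702, 1703 and 1755 CPM in hlh-2 RNAi and 1731, 1581 and 1762 CPM in lin-32 RNAi, against 1808 and 1846 CPM in L4440. Like each of the 6 members, F27C1.6, glh-2, C14C11.2, cpg-1 and cdc-42 were all lowest in lin-32 RNAi replicate 2. As they were chosen by likeness over the libraries, shared high or low libraries are not a separate observation. Both controls were the highest libraries for cpg-1, vit-2, vit-3 and vit-4, but not for vit-1, vit-5 and vit-6.

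Genes that move yolk from the intestine to the oocyte showed little difference. Of 18 genes of lipoprotein assembly and yolk uptake 0 passed in any comparison with edgeR, and the medians were 0.028 in hlh-2 RNAi and 0.015 in lin-32 RNAi against L4440 (log2). At an unadjusted p under 0.05 there were 0, 2 and 1 in hlh-2 RNAi against L4440, lin-32 RNAi against L4440 and hlh-2 RNAi against lin-32 RNAi. The yolk receptor gene rme-2 had 1334, 1320 and 1342 CPM in hlh-2 RNAi and 1356, 1208 and 1343 CPM in lin-32 RNAi, against 1408 and 1362 CPM in L4440. All RNAi libraries of rme-2 lay below both controls. Of all tested genes, 12.2% lay so in hlh-2 RNAi and 15.4% in lin-32 RNAi. Its log2 fold changes were -0.056 ± 0.050 in hlh-2 RNAi (SE, edgeR adjusted p = 0.898) and -0.089 ± 0.050 in lin-32 RNAi (SE, edgeR adjusted p = 0.500). The dsc-4 gene encodes the large subunit of the microsomal triglyceride transfer protein, which loads lipid onto vitellogenin. Its log2 fold changes were -0.085 ± 0.064 in hlh-2 RNAi and -0.11 ± 0.064 in lin-32 RNAi (SE, edgeR adjusted p = 0.872 and 0.531). In lin-32 RNAi the lowest p belonged to the early endosome GTPase gene rab-5 at 0.082 ± 0.035, the dynamin gene dyn-1 at 0.12 ± 0.052, the cathepsin L gene cpl-1 at 0.13 ± 0.060 and the recycling endosome GTPase gene rab-11.1 at 0.071 ± 0.036 (log2, SE, edgeR adjusted p from 0.363 to 0.459).

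Of 23 genes that regulate vitellogenin transcription 0 passed in any comparison with edgeR, and 1, 1 and 0 had an unadjusted p under 0.05 in the comparisons in the same order. The medians were 0.045 in hlh-2 RNAi and 0.044 in lin-32 RNAi against L4440 (log2). As the list mixes activators with repressors such as mab-3, these medians give no direction for vitellogenin transcription. The intestinal GATA factor gene elt-2 had 9.17, 10.3 and 10.05 CPM in hlh-2 RNAi and 9.35, 10.6 and 10.3 CPM in lin-32 RNAi, against 9.57 and 10.3 CPM in L4440, with all groups overlapping. The homeodomain genes unc-62 and ceh-60 stood at log2 fold changes of 0.041 ± 0.099 and 0.12 ± 0.12 in hlh-2 RNAi and 0.044 ± 0.099 and 0.017 ± 0.12 in lin-32 RNAi (SE). The zinc finger gene pqm-1 stood at -0.028 ± 0.098 and 0.012 ± 0.098, and lin-29, a heterochronic zinc finger gene of the larva-to-adult switch, at -0.038 ± 0.16 and 0.067 ± 0.16 (SE). The repressor gene mab-3 had 4, 10 and 5 counts in hlh-2 RNAi and 15, 8 and 12 counts in lin-32 RNAi, against 7 and 2 counts in L4440, too few to show a difference at this depth. The lowest p was that of sgk-1, a kinase gene downstream of insulin and TORC2 signalling, at 0.19 ± 0.075 in hlh-2 RNAi and 0.20 ± 0.076 in lin-32 RNAi (SE, edgeR adjusted p = 0.691 and 0.307). Next by p were the heterochronic gene lin-14 at 0.30 ± 0.16 in hlh-2 RNAi and the hunchback-like gene hbl-1 at -0.34 ± 0.16 in lin-32 RNAi (log2, SE).

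Other genes of the intestine, where vitellogenins are made, were counted in a list of 20, which also holds elt-2. Of these, 10 lay below 0 in hlh-2 RNAi and 6 in lin-32 RNAi against L4440, where 50.3% and 49.4% of all tested genes did. At an unadjusted p under 0.05 there were 4 of 20 in hlh-2 RNAi and 5 of 20 in lin-32 RNAi, where 6.78% and 12.6% of all tested genes were. Of these 20 intestine genes cpr-1, a cysteine protease gene of the gut, was the 1 that passed with edgeR against L4440, and 0 passed as lower. The cpr-1 transcript was higher by 0.57 ± 0.087 in hlh-2 RNAi and 0.56 ± 0.087 in lin-32 RNAi (log2, SE, edgeR adjusted p = 0.0198 and 0.0117). It had 249, 193 and 224 CPM in hlh-2 RNAi and 227, 203 and 232 CPM in lin-32 RNAi, against 146 and 153 CPM in L4440. The cpr-1 call was lost without either L4440 library (edgeR adjusted p = 0.333 and 0.350 in hlh-2 RNAi, 0.151 and 0.116 in lin-32 RNAi), and in hlh-2 RNAi also without its replicate 3 (edgeR adjusted p = 0.0531). For asp-1, which encodes an aspartyl protease, the levels were 958, 953 and 1006 CPM in hlh-2 RNAi, against 1232 and 1170 CPM in L4440, and stood at -0.30 ± 0.057 (log2, SE, edgeR adjusted p = 0.0659). Over the alternatives its adjusted p ran from 3.57e-11 without a filter on low counts to 0.701 without L4440 replicate 1, and asp-1 passed with DESeq2 (2.20e-05) and limma-voom (0.0494). The metallothionein genes mtl-1 and mtl-2 stood at 0.49 ± 0.19 and 0.28 ± 0.097 (log2, SE) in hlh-2 RNAi, and in lin-32 RNAi mtl-2 stood at 0.33 ± 0.097, asp-1 at -0.18 ± 0.057 and the gut esterase gene ges-1 at 0.18 ± 0.068. Summed over the list, intestine genes lay at 3390 to 3527 CPM in hlh-2 RNAi and 3428 to 3798 CPM in lin-32 RNAi, against 3600 to 3686 CPM in L4440. Most of this sum came from asp-1 and cpr-6, so it says little of the other genes. In hlh-2 RNAi and L4440 the means were 972 and 1201 CPM for asp-1 and 1264 and 1324 CPM for cpr-6. The medians of the list were 0.0013 and 0.094 (log2) in the comparisons with L4440. Between the RNAi groups 0 of 20 passed with edgeR, with a median of -0.047 (log2). There 2 had an unadjusted p under 0.05, where 7.97% of all tested genes did. These were nhx-2 at -0.26 ± 0.062 and asp-1 at -0.12 ± 0.051 (log2, SE, edgeR adjusted p = 0.130 and 0.577). The part of the summed intestine level in the vitellogenin values was not tested.

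Markers of the other tissues and of stage were as follows. Of 18 oocyte and eggshell genes, a list that also holds rme-2, 0 passed in any comparison with edgeR (1, 1 and 2 at an unadjusted p under 0.05), and 14 of 18 were below 0 in hlh-2 RNAi and 8 of 18 in lin-32 RNAi against L4440, where 50.3% and 49.4% of all tested genes were. Their summed level was 20838 to 21048 CPM in hlh-2 RNAi and 20519 to 21612 CPM in lin-32 RNAi, against 21340 to 21723 CPM in L4440, and its lowest library was lin-32 RNAi replicate 2, as for the members. The part of this in the vitellogenin values was not tested. The list medians were -0.027 in hlh-2 RNAi and 7.7e-04 in lin-32 RNAi against L4440 (log2). The lowest p in that list belonged to the eggshell genes perm-2 at -0.091 ± 0.041 in hlh-2 RNAi and cpg-1 at -0.11 ± 0.048 in lin-32 RNAi (log2, SE). Between the RNAi groups perm-2 and perm-4 both stood at -0.14 (log2).

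Sperm genes were scarce. Of 15 listed 5 reached the filter, 0 passed with edgeR (0 at an unadjusted p under 0.05), and the 15 summed to 14.3 to 16.5 CPM over the 8 libraries. Against L4440 the medians of the 5 were -0.0050 in hlh-2 RNAi and -0.11 in lin-32 RNAi (log2). Of the adult cuticle genes 5 of 6 were tested and 0 passed with edgeR (0, 1 and 1 at an unadjusted p under 0.05), with medians of -0.069 in hlh-2 RNAi and 0.0088 in lin-32 RNAi against L4440 (log2). The adult collagen gene col-19 had 91.7, 97.4 and 105 CPM in hlh-2 RNAi and 107, 103 and 111 CPM in lin-32 RNAi, against 106 and 100.02 CPM in L4440. In lin-32 RNAi the strut collagen gene bli-1 stood at -1.05 ± 0.38 (log2, SE, edgeR adjusted p = 0.280). Of 11 neuron genes 0 passed with edgeR (1, 0 and 0 at an unadjusted p under 0.05), with unc-13 at 0.21 ± 0.091 in hlh-2 RNAi and sng-1 at -0.61 ± 0.32 in lin-32 RNAi (log2, SE). The neuron medians were 0.031 and 0.021 against L4440. Of 10 body wall muscle genes 0 passed against L4440 with edgeR (0 and 2 at an unadjusted p under 0.05), with medians of -0.023 in hlh-2 RNAi and 0.017 in lin-32 RNAi (log2). Between the RNAi groups the myosin gene myo-3 had 39.6, 40.98 and 38.6 CPM in hlh-2 RNAi, against 34.1, 33.8 and 33.1 CPM in lin-32 RNAi. It was higher in hlh-2 RNAi by 0.24 ± 0.043 (log2, SE, edgeR adjusted p = 0.0309). Whichever of the 8 libraries was left out, myo-3 no longer passed (edgeR adjusted p from 0.0504 to 0.163).

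**Figure D5:**
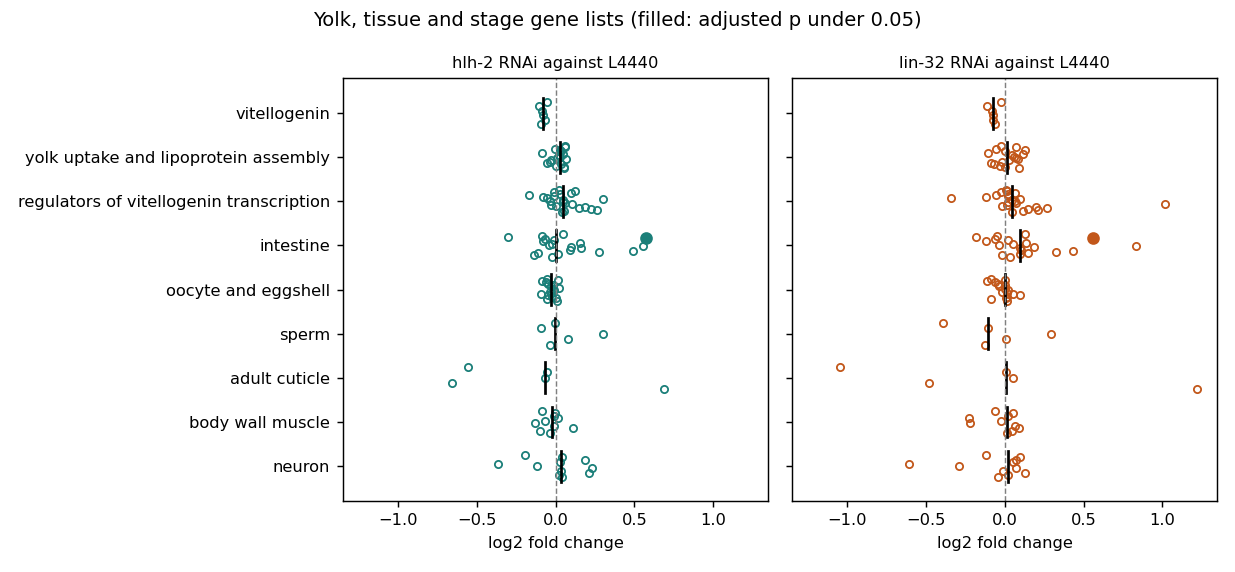
Log2 fold change (horizontal axis) of each tested gene of the vitellogenin, yolk, tissue and stage lists in hlh-2 RNAi and lin-32 RNAi against L4440, with open circles for genes that did not pass, filled circles for adjusted p under 0.05 and bars for list medians. The vitellogenin genes cluster left of 0, at medians of -0.083 and -0.075, and the filled point in each panel is cpr-1.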

How the data were processed

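RNA-seq of whole nematodes gave 8 libraries in 3 groups, taken from the sample titles. The deposited table holds raw read counts per WormBase gene, not normalized. Per the submitters' processing notes, the authors used the build WBcel235, featureCounts 1.4.6-p4, TopHat2 2.1.0 and bcl2fastq 1.8.4. The sources used here do not give the annotation release or the settings for strand, overlapping genes and reads that map to several places. Total counts ran from 22380739 to 34814808.

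Symbols were matched by gene ID (43693 of 46748), and coordinates, biotypes and exon lengths came from Ensembl release 115 of WBcel235. In R 4.3.3 with edgeR 4.0.16, filterByExpr by group left 14272 genes and libraries were scaled by TMM. One quasi-likelihood model with group as its only term (glmQLFit, then glmQLFTest) was fitted to all 8 libraries. Benjamini-Hochberg adjustment of p-values ran over all tested genes, with a threshold of 0.05. CPM is a gene's count relative to its library's TMM-scaled total over tested genes, and a level per length is CPM divided by the kilobases of merged exons. Intervals are 95% intervals from the same fit, not adjusted for the number of genes. The steps were tested on simulated counts. DESeq2 1.42.0, limma-voom (limma 3.58.1), other scalings and filters, a replicate block and leaving out each library were alternatives. The members and lists were chosen with earlier results of these data known. Named genes are the 6 members, the list members past the threshold or, failing that, up to 4 with the smallest p, and 9 regulators and markers fixed by name, and the 5 genes most alike to the members over the libraries. In the intestine list, the values of asp-1, mtl-1, mtl-2 and ges-1 against L4440 lie outside this rule and were chosen after they were seen.

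Replicate numbers were checked for pairing from the correlation, across genes, of how libraries deviate from the mean of their group. Between libraries labelled hlh-2 RNAi and lin-32 RNAi, equal numbers gave 0.265, 0.194 and 0.191, all above 0.1, and unequal numbers gave -0.190 to 0.0109. By the counts alone the numbers pair these 6 libraries, while no label names a shared day or batch. With L4440, equal numbers gave -0.165 to -0.0368 and unequal numbers reached 0.165, so no pairing by number was seen there. The replicate block uses the L4440 numbers all the same. The values between the RNAi groups still come from the model without a block, and the blocked fit is an alternative. No label says that replicates are separate cultures, so the spread that p-values measure may be technical. No vitellogenin sequence was used here, and the comparison of the members' sequences that had been planned was not made.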

Additional observations from a re-analysis of the deposited data

How the results depend on the processing

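No member passed in any of 17 alternatives in any comparison. In hlh-2 RNAi against L4440 all 6 stayed below 0 in all 17, between -0.12 and -0.030 (log2), with a lowest adjusted p of 0.240. In lin-32 RNAi against L4440 they ran from -0.14 to 0.043, with a lowest adjusted p of 0.0828, and only vit-1 changed sign, from -0.070 to 0.043 over the libraries left out. Between the RNAi groups 13 of 102 values changed sign, all near 0. With library size alone vit-3 and vit-4 both stood at 0.011. With 1 library left out vit-1 ran from -0.098 to 0.013, vit-2 from -0.028 to 0.030, vit-3 from -0.034 to 0.031, vit-4 from -0.030 to 0.024 and vit-5 from -0.029 to 0.048. Computing library sizes without vitellogenin counts changed no sign or call of the members.

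Genes past the threshold in hlh-2 RNAi against L4440, lin-32 RNAi against L4440 and hlh-2 RNAi against lin-32 RNAi numbered 223, 610 and 342 without a filter on low counts and 49, 177 and 91 with DESeq2. With the replicate block they were 72, 350 and 132, and no member passed. The L4440 libraries share only a number with the others. With 1 library left out the counts ran from 3 to 31, 17 to 157 and 25 to 93. Against L4440 the lowest were 3 and 17 without L4440 replicate 2 and 5 and 41 without L4440 replicate 1. Counts also moved by over 1.5 times without hlh-2 RNAi replicate 2 (15, 67 and 28), without its replicate 3 (13 in the first comparison, 31 in the last) or replicate 1 (93 in the last), without lin-32 RNAi replicate 2 (60 in the second, 25 in the last) and without its replicate 3 (61 in the second). The vitellogenin share was 6.38% in hlh-2 RNAi and 6.65% in L4440 among protein-coding counts, and 6.59% in L4440 without ribosomal RNA genes. With 1 library left out it ran from 6.26% to 6.31% in hlh-2 RNAi, 6.16% to 6.35% in lin-32 RNAi and 6.52% to 6.58% in L4440. The cause of these shifts was not tested. Depth is no limit for the members, which had at least 61790 counts per library. The 2 control libraries limit both comparisons with L4440.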
